A study of Mus musculus with 18 samples.

Results

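The luminal and epithelial transcription factors examined here were 10 genes taken by symbol from a list: Foxa1, Gata3, Elf3, Elf5, Ehf, Grhl2, Tfap2b, Tfap2c, Tbx2 and Tbx3. All 10 were found among the 19938 genes measured, and each was read by a single probe set that the annotation assigns to that gene alone. The list was drawn up with earlier results of these data known. The series holds 18 mouse gene expression arrays of total RNA, with 3 arrays in each of 6 groups, and the values are on the log2 scale, so that a difference of 1 unit is a doubling.

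Comma-D is an epithelial line from normal mouse mammary gland, labelled normal, without erbB2 and without phosphorylated erbB2. MMTV-neu cells come from mammary tumours of mice in which the mouse mammary tumour virus promoter drives the neu (erbB2) oncogene, and they are labelled cancer, with erbB2 and its phosphorylated form. The lines were mixed at 1:50 or 1:1, grown together in Comma-D medium, and parted with magnetic beads that carried an antibody to erbB2 into erbB2-negative and erbB2-positive fractions. Both negative fractions are labelled normal, the 1:1 positive fraction cancer with phosphorylated erbB2, and the 1:50 positive fraction redirected, with erbB2 but without its phosphorylated form. The larger share of the 1:50 mixture is not assigned to a line in the titles. Unmixed MMTV-neu cells grew in DMEM with 10% serum, and Comma-D cells and all mixtures in DMEM/F12 with 2% serum, insulin and EGF, so in every comparison with MMTV-neu the line and the medium cannot be told apart. Every group is a line or a sorted mixture of the same 2 lines, so fewer cells of a type and less RNA per cell cannot be told apart in any of them. Nothing in the labels says that the 3 arrays of a group came from separate cultures, so p-values measure only the spread between these samples.

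Mammary epithelium has an inner luminal layer, which holds hormone-sensing cells and the precursors of milk-producing alveolar cells, and an outer basal layer of contractile myoepithelial cells. Foxa1 opens closed chromatin for the oestrogen receptor in hormone-sensing cells, Gata3 keeps luminal cells differentiated in the mouse gland, and Elf5 drives the alveolar fate. Elf3 and Ehf are further ETS factors of epithelia, Grhl2 keeps genes of epithelial junctions such as Cdh1 switched on, Tfap2b and Tfap2c are AP-2 factors, and Tbx2 and Tbx3 are T-box repressors, of which Tbx3 is needed to form the mammary bud in the mouse embryo.

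The labels and the scale were checked first. Erbb2, the gene the cells were sorted on, was at 8.20 ± 0.11 log2 units (SD, n = 3) in Comma-D and 8.06 ± 0.14 in MMTV-neu, so its mouse probe set did not part the groups by label, and how well it reads the transgene was not tested. Krt8, a keratin of simple epithelium, was between 11.22 and 11.46 on the MMTV-neu arrays, whereas Epcam, an adhesion molecule of epithelium, was between 5.70 and 6.01 there, under the array medians, and between 9.45 and 9.57 in Comma-D. Comma-D also had high Vim, a mesenchymal filament, at 12.93 to 12.95. These are single markers, and their lists went both ways between the lines. Of 12 luminal markers 6 were higher and 5 lower in MMTV-neu by limma at an adjusted p under 0.05. Of 10 fibroblast and mesenchymal markers 4 were higher and 6 lower, beside 56.4% and 30.4% of all genes. Array means over the endothelial, leukocyte and adipocyte markers were 5.35 to 5.58 in Comma-D and 6.20 to 6.40 in MMTV-neu, with 7 and 5 of 8 endothelial, 6 and 6 of 8 leukocyte and 5 and 3 of 6 adipocyte markers under the array medians. The arrays differed in spread, with an SD over genes of 1.97 to 1.99 in Comma-D and 1.51 to 1.55 in MMTV-neu. The part of these markers and of the spread in the results was not tested. Each co-culture array was also placed between the lines, from 0% at the Comma-D mean to 100% at the MMTV-neu mean, over 1637 genes that differ by at least 2 log2 units and are no members. The 1:50 negative arrays lay at 2.18% to 4.10%, the 1:50 positive at 23.0%, 7.19% and 12.7%, the 1:1 negative at 42.1%, 19.2% and 16.6%, and the 1:1 positive at 80.5%, 66.7% and 60.9% (replicates 1, 2 and 3). Replicate 1 thus lay nearest to MMTV-neu in 3 of the 4 fractions.

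Promoter windows from RefSeq (GRCm38.p6, 250 bases before to 50 after a start listed for the gene) were at hand for 5 of the 10 genes, in 6 windows. Those of Foxa1 and Tfap2b are shown because these genes had the largest rise and the largest fall between the lines, and that of Gata3 because it is paired with Foxa1 below. The Foxa1 window lies at chr12:57546062-57546361 on the minus strand, that of Gata3 at chr2:9878551-9878850 on the minus strand and that of Tfap2b at chr1:19211804-19212103 on the plus strand. Each of these windows lies inside the span of its gene (chr12:57540628-57548029, chr2:9857078-9887953 and chr1:19208908-19238845) and not at its outer start. They are written 5′ to 3′ along the gene with motif matches in capitals.
Foxa1: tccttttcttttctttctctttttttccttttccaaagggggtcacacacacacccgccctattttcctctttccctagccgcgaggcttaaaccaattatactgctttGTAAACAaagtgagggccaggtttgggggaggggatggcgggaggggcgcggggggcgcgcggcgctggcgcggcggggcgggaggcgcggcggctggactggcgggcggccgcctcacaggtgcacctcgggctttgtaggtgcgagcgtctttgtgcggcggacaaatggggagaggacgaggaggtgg
Gata3: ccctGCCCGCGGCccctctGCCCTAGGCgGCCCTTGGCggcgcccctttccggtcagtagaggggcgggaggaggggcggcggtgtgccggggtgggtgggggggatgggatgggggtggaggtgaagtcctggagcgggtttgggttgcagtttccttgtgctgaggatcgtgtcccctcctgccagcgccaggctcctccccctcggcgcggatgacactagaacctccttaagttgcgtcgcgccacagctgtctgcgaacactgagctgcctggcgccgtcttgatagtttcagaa
Tfap2b: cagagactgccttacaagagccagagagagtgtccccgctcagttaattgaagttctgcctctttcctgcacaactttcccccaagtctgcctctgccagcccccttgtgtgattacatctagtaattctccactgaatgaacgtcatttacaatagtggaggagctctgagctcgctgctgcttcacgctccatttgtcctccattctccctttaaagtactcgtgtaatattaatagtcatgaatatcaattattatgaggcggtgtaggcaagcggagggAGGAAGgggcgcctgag
The motifs searched on both strands were TGTTTAC for FOXA, AGGAAG for ETS, AACCGG for grainyhead, GCCNNNGGC for AP-2, GGTGTGA for T-box and AGATAA for GATA factors. The Foxa1 window holds 1 match to the FOXA motif, which 3.65% of all 32851 windows hold. The Gata3 window holds 3 matches to the AP-2 motif, present in 16.6% of windows, and the Tfap2b window 1 to the ETS motif, present in 35.4%. Elf3 had 1 grainyhead match, against 6.83% of windows, and the downstream window of Elf5 1 T-box match, against 3.98%, while its upstream window had 0 matches to any of the motifs. A match describes letters only and says nothing of binding.

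The comparison of the unmixed lines asked how the factors differ between cancer and normal cells. Foxa1 and Tbx2 were far higher in MMTV-neu and Ehf and Tfap2b far lower, while Elf3 and Elf5 were moderately higher. Gata3 and Tbx3 were lower as deposited, and Grhl2 was not called on that scale. Of the 10 factors 5 were higher and 4 lower by limma at an adjusted p under 0.05, beside 86.8% of all genes called either way, 56.4% higher and 30.4% lower, so the share called is near that of all genes and only the sizes are described here.

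**Figure D1:**
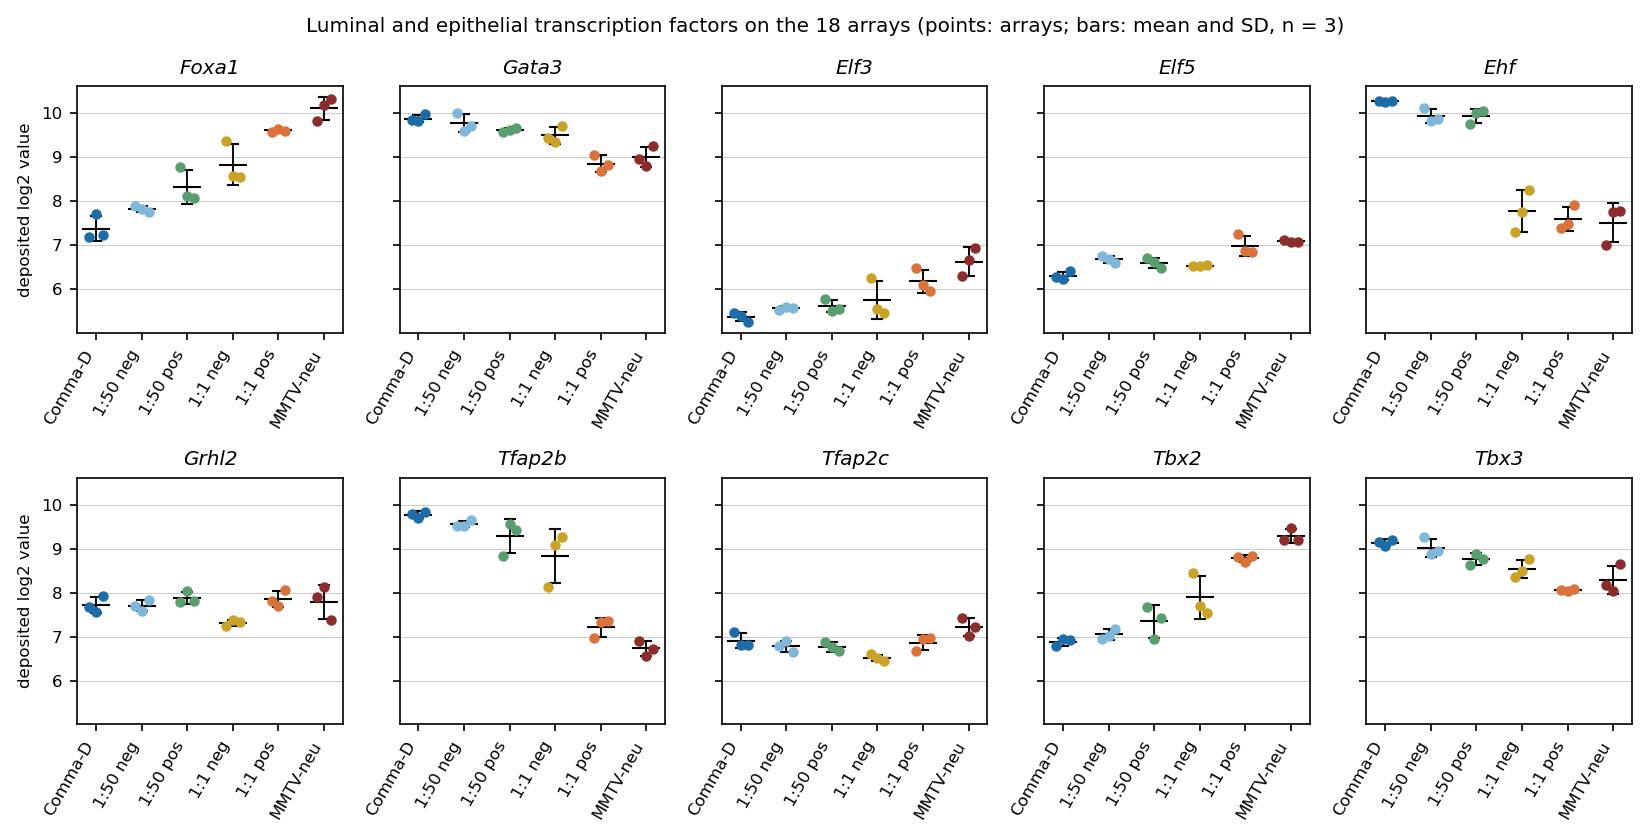
Deposited log2 value of each of the 10 factors on every array (points), with the mean and SD of each group (bars, n = 3); neg and pos are the erbB2-negative and erbB2-positive fractions. Foxa1 and Tbx2 climb from Comma-D to MMTV-neu through the fractions, and Tfap2b descends. Ehf is near 10 in Comma-D and both 1:50 fractions and near 7.7 in the other groups. The descent of Gata3 and Tbx3 holds for the values as deposited and turns under other scalings. The likeness of the lower groups of Ehf also holds only for the values as deposited and not with arrays centred on reference genes.

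Foxa1 read 7.20, 7.70 and 7.23 on the Comma-D arrays and 9.82, 10.18 and 10.31 on the MMTV-neu arrays (replicates 1, 2 and 3). The groups did not overlap, and the difference was 2.73 (SE 0.21, 6.62-fold, adjusted p = 1.11e-08). Gata3 read 9.83, 9.82 and 9.97 in Comma-D and 8.95, 8.80 and 9.25 in MMTV-neu. The arrays were apart here too, yet the difference of -0.87 (SE 0.14, adjusted p = 1.56e-05) depended on the scaling. It became 0.88 (adjusted p = 0.000511) with each array centred on reference genes, which themselves fell in MMTV-neu, and 0.17 (adjusted p = 0.349) after quantile normalization. The 2 luminal regulators thus moved apart as deposited, and no scaling tried turned the rise of Foxa1.

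The T-box pair parted likewise. Tbx2, which represses senescence genes in human and mouse cells, read 6.78, 6.94 and 6.94 in Comma-D and 9.20, 9.48 and 9.19 in MMTV-neu, a rise of 2.41 (SE 0.20, 5.30-fold, adjusted p = 1.81e-08). Tbx3 read 9.16, 9.05 and 9.19 in Comma-D and 8.18, 8.03 and 8.66 in MMTV-neu. Its difference of -0.85 (SE 0.15, adjusted p = 4.75e-05) became 0.91 (adjusted p = 0.000221) with centring and 0.03 (adjusted p = 0.865) after quantile normalization, so its direction is not settled by these arrays.

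Among the 3 ETS factors of the list Ehf went down and Elf3 and Elf5 up. Ehf read 10.28, 10.26 and 10.28 in Comma-D and 7.01, 7.75 and 7.78 in MMTV-neu, and it fell by 2.75 (SE 0.22, 6.75-fold, adjusted p = 1.33e-08). Elf5 read 6.28, 6.23 and 6.41 in Comma-D against 7.12, 7.08 and 7.06 in MMTV-neu, a rise of 0.78 (SE 0.11, adjusted p = 3.83e-06). Elf3 rose by 1.25 (SE 0.19, adjusted p = 1.05e-05) from 5.46, 5.41 and 5.27, all under the medians of the Comma-D arrays, to 6.29, 6.67 and 6.94. On 1 of the MMTV-neu arrays Elf3 was also under the array median. Values that low lie in a range where arrays understate differences. Genes of a similar Comma-D level rose as well, however, with a median of 0.95. Ehf and Elf5 are neighbours on chromosome 2, with 0 protein-coding genes between them in the RefSeq gene table, and they moved in opposite directions.

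Tfap2b had the largest difference of the 10. It read 9.80, 9.69 and 9.83 in Comma-D and 6.91, 6.57 and 6.73 in MMTV-neu, and it fell by 3.03 (SE 0.23, 8.20-fold, adjusted p = 7.66e-09). Its relative Tfap2c, known in human breast cancer cells as a factor that binds the ERBB2 promoter, was 0.30 higher in MMTV-neu (SE 0.12, adjusted p = 0.0314), with overlapping arrays. That call was lost without Comma-D replicate 2 or 3 (0.25, adjusted p = 0.108, and 0.26, adjusted p = 0.104) and without MMTV-neu replicate 1 or 3 (0.20, adjusted p = 0.156, and 0.30, adjusted p = 0.0561). Grhl2 read 7.67, 7.57 and 7.93 in Comma-D and 7.89, 8.12 and 7.37 in MMTV-neu, a difference of 0.07 with a 95% interval of -0.26 to 0.40. It was called higher under the other scalings, at 1.82 (adjusted p = 1.12e-09) with centring and 0.54 (adjusted p = 0.0134) after quantile normalization.

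The size of a change on these arrays went with the level of a gene. When all genes were ranked by their Comma-D level, which also enters the difference, the median MMTV-neu minus Comma-D difference was 0.61 in the lowest of 4 equal bins, 0.95 in the next, 0.02 in the third and -1.37 in the highest. Foxa1 and Tbx2, in the third bin, rose by more than 99.9% and 99.8% of its genes. Ehf and Tfap2b, in the highest bin, stood above 13.1% and 9.35% of its genes, so they fell by more than most abundant genes did. Gata3 and Tbx3, in the same bin, stood above 66.2% and 67.3%, a smaller fall than the typical gene of their level, and Elf5, in the bin below the third, rose by less than its median. Elf3, in the same bin as Elf5, stood above 77.0% of its genes. With centring the median over all genes moved up by 1.75, and 93.0% of the called genes were higher instead of 65.0%. Quantile normalization moved the same median by -0.17 and left 65.3% of the called genes higher.

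A ratio of 2 genes on the same array is free of any scaling that adds the same amount to all genes. It is not free of a change that depends on the level of a gene. Relatives were also set against each other within each array, a comparison added after the data were seen. Relative to the Comma-D mean, the Tbx2 over Tbx3 ratio on the MMTV-neu arrays was higher by 3.28, 3.69 and 2.78 log2 units. The Foxa1 over Gata3 ratio was higher by 3.37, 3.88 and 3.55, and the Tfap2c over Tfap2b ratio by 3.37, 3.30 and 3.34. The Comma-D arrays themselves varied by no more than 0.38 either way in these ratios. Elf5 over Ehf rose by 3.53 on average (11.6-fold) and Elf3 over Ehf by 4.01 (16.1-fold). In all 5 ratios the arrays of the lines did not overlap, and the two-sided exact permutation test gave p = 0.1, the smallest it can give for 3 against 3 arrays (adjusted p = 0.138 over 55 ratio tests). The share of all gene pairs without overlap was not computed, so this count shows nothing particular to these pairs. A ratio shows unequal change of its members, not which of them moved. In all 5 ratios the lower member, Tbx3, Gata3, Tfap2b or Ehf, lay in the highest bin of Comma-D level. The upper member always lay in a lower bin. The median MMTV-neu minus Comma-D difference was -1.37 in the highest bin and 0.95 or 0.02 in the bins of the upper members. Typical genes of these bins would thus also give a higher ratio. The share of level in these rises was not tested.

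**Figure D2:**
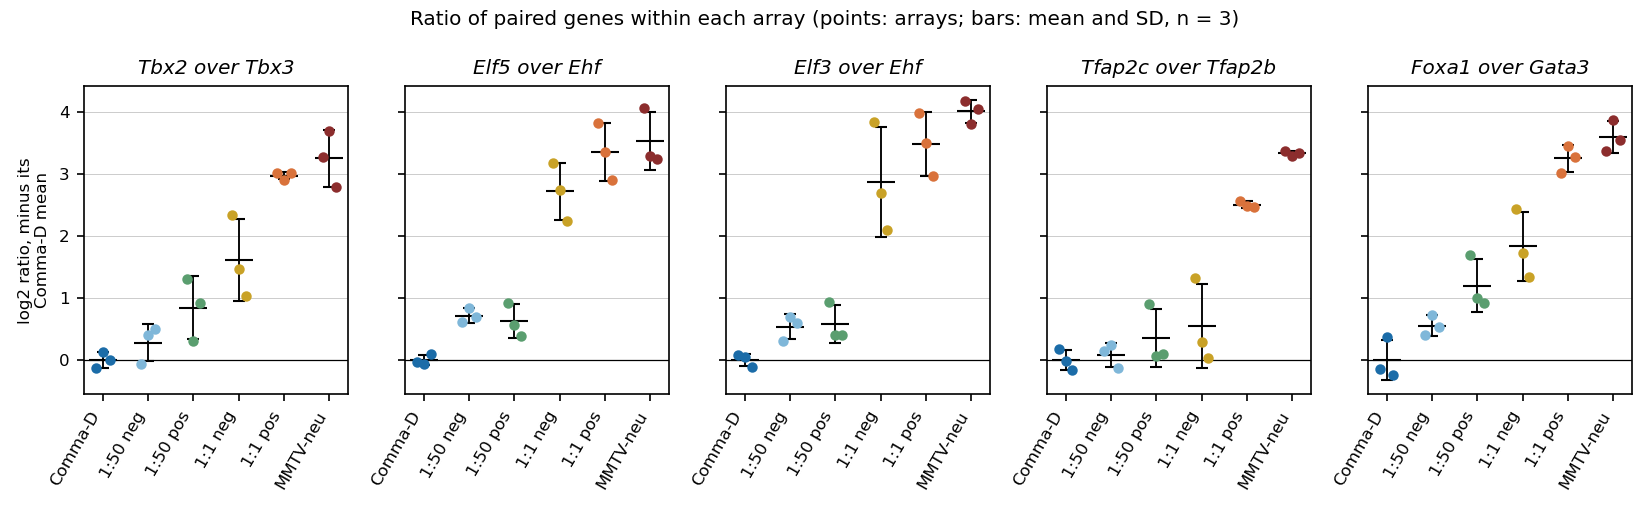
Log2 ratio of paired factors within each array, minus the Comma-D mean of that ratio (points: arrays; bars: mean and SD, n = 3). The MMTV-neu arrays are 2.78 to 4.17 above Comma-D in the 5 panels, and the ratios over Ehf on the 1:1 erbB2-negative arrays, at 2.09 to 3.84, lie far above those of both 1:50 fractions.

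The 1:50 erbB2-positive fraction, labelled redirected, was compared with both lines. Against MMTV-neu 9 of 10 factors were called, 4 higher and 5 lower, beside 83.4% of all genes, 25.8% higher and 57.6% lower. Tfap2b was 2.54 higher (SE 0.23, adjusted p = 1.03e-07) and Ehf 2.42 higher (SE 0.22, adjusted p = 1.12e-07), while Tbx2 fell by 1.94 (SE 0.20, adjusted p = 3.7e-07) and Foxa1 fell by 1.79 (SE 0.21, adjusted p = 1.86e-06). Elf3 fell by 1.01, Elf5 by 0.49 and Tfap2c by 0.44. The median of all genes in the level bin of Elf3 and Elf5 was -0.80. Gata3 was 0.61 higher and Tbx3 0.47 higher as deposited, but -0.90 and -1.04 with centring and -0.22 and -0.18 after quantile normalization. Grhl2 was at 0.09 (adjusted p = 0.619) as deposited and at -1.42 (adjusted p = 1.04e-07) with centring. The call on Tbx3 was also lost without MMTV-neu replicate 2 (0.34, adjusted p = 0.0518).

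Against Comma-D only Foxa1 was called in that fraction, beside 5.71% of all genes, 1.17% higher. Foxa1 read 8.77, 8.12 and 8.07 on its arrays, all above the highest Comma-D array at 7.70, and was 0.94 higher (SE 0.21, 1.92-fold, adjusted p = 0.0154). The call was lost without Comma-D replicate 1 (0.85, adjusted p = 0.0833) or 3 (0.87, adjusted p = 0.0822), without replicate 1 of the fraction (0.72, adjusted p = 0.0973) and after quantile normalization (0.92, adjusted p = 0.1). Tbx2 read 7.67, 6.94 and 7.44, a difference of 0.47 (95% interval 0.05 to 0.88, adjusted p = 0.179), which was called without replicate 2 of the fraction (0.67, adjusted p = 0.0493). Ehf read 9.74, 10.00 and 10.05, a difference of -0.34 (95% interval -0.80 to 0.13, adjusted p = 0.384). Tfap2b differed by -0.49 (95% interval -0.98 to -0.01, adjusted p = 0.22). For 5 of the 10 factors the unadjusted p was under 0.05. The share of all genes under that cut-off was not computed, so this and later counts at an unadjusted p do not measure enrichment.

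The 1:50 erbB2-negative fraction was called at 0 of 10 factors against Comma-D by limma, beside 1.68% of all genes, with 1 factor, Elf5, at an unadjusted p under 0.05 (0.38, SE 0.11, adjusted p = 0.111). Ehf read 10.11, 9.81 and 9.87 in it and Tfap2b 9.51, 9.52 and 9.65. Between the 2 fractions of the 1:50 co-culture 0 of 10 factors were called by limma, beside 0.01% of all genes, and 1, Foxa1, had an unadjusted p under 0.05. Foxa1 read 7.90, 7.83 and 7.75 in the negative and 8.77, 8.12 and 8.07 in the positive fraction, so the arrays did not overlap, but the difference of 0.49 (95% interval 0.04 to 0.95) had an adjusted p of 0.336. Ehf differed by 0.00 between these fractions (95% interval -0.46 to 0.47).

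The 1:1 erbB2-positive fraction, labelled cancer, was compared with both lines. On the scale from 0% at Comma-D to 100% at MMTV-neu, Ehf lay at 97.3%, Tfap2b at 84.2%, Foxa1 at 81.8%, Tbx2 at 79.0% and Elf3 at 64.1%, while Tfap2c, at 6.87 ± 0.16, lay below the means of both lines. Against MMTV-neu 0 of 10 were called by limma, beside 18.3% of all genes. An unadjusted p under 0.05, for which no share of all genes was computed, was found for 4. Those 4 were Foxa1 (-0.50, adjusted p = 0.111), Elf3 (-0.45, adjusted p = 0.103), Tfap2c (-0.35, adjusted p = 0.0586) and Tbx2 (-0.51, adjusted p = 0.0811). Of them Elf3 was called without replicate 1 of MMTV-neu (-0.62, adjusted p = 0.0426) or of the fraction (-0.60, adjusted p = 0.0444), and Tfap2c without MMTV-neu replicate 2 (-0.45, adjusted p = 0.0265). With centring 9 of the 10 were called lower, where the median over all genes moves by -0.72, and 4 were called after quantile normalization, Tfap2b higher and Foxa1, Tfap2c and Tbx2 lower. Against Comma-D 8 were called, 4 each way, beside 78.3% of all genes, 45.8% higher and 32.5% lower. Foxa1 read 9.58, 9.64 and 9.60 in the fraction, 2.23 above Comma-D (SE 0.21, adjusted p = 2.54e-07), and Tbx2 read 8.82, 8.69 and 8.84, 1.90 above (SE 0.20, adjusted p = 5.24e-07). Ehf read 7.39, 7.48 and 7.90 and fell by 2.68 (SE 0.22, adjusted p = 6.16e-08), and Tfap2b read 6.97, 7.33 and 7.36 and fell by 2.55 (SE 0.23, adjusted p = 1.4e-07). Gata3 and Tbx3 were at -1.02 and -1.08 as deposited, where the median of their level bin was -1.23, but at 0.02 and -0.04 with centring.

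**Figure D3:**
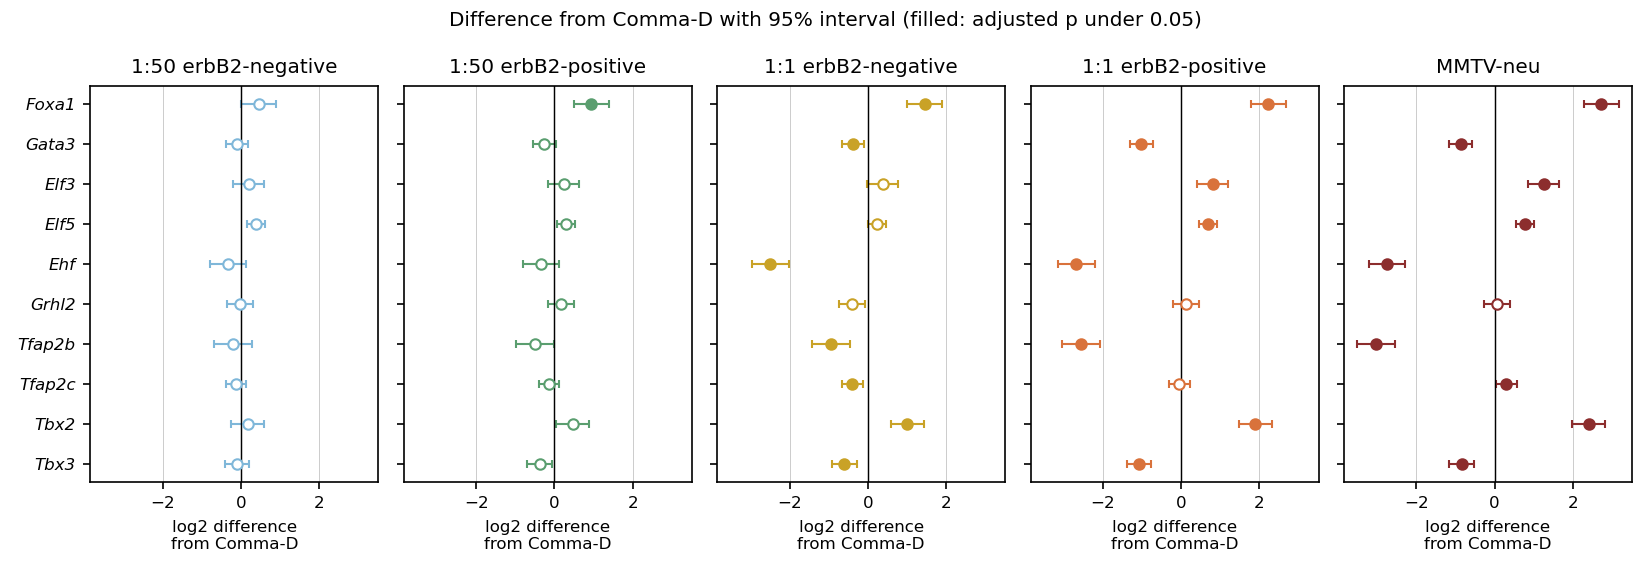
Difference of each of the 10 factors from Comma-D in the other 5 groups, in log2 units with the 95% interval of the fit (n = 3 and 3; filled points have an adjusted p under 0.05). Foxa1 runs from 0.45 to 2.73 across the panels as deposited. On that scale Ehf is near -2.5 or lower in every group but the 1:50 fractions. The lower values of Gata3 and Tbx3 in MMTV-neu turn under other scalings.

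The mixing ratio was compared within each sorted fraction. Between the positive fractions 8 of 10 factors were called, 4 each way, beside 71.4% of all genes, 27.4% higher and 44% lower. Ehf was 2.34 higher in the 1:50 fraction (SE 0.22, adjusted p = 8.84e-07) and Tfap2b 2.06 higher (SE 0.23, adjusted p = 3.56e-06), while Tbx2 fell by 1.43 (SE 0.20, adjusted p = 2.07e-05) and Foxa1 fell by 1.29 (SE 0.21, adjusted p = 9.43e-05). Elf3 fell by 0.56 (SE 0.19, adjusted p = 0.0142), a call lost without replicate 2 of the 1:50 fraction (-0.51, adjusted p = 0.0506) or replicate 1 of the 1:1 fraction (-0.41, adjusted p = 0.0838). The median of all genes in its bin of Comma-D level was -0.58. Gata3 was 0.76 and Tbx3 0.70 higher in the 1:50 fraction as deposited, where the median of their level bin was 0.92, and -0.03 and -0.10 with centring. Grhl2 of the positive fractions read 7.79, 8.04 and 7.81 against 7.81, 7.71 and 8.06, a difference of 0.02 (95% interval -0.31 to 0.36), or -0.77 (adjusted p = 0.000672) with centring.

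The 1:1 erbB2-negative fraction, labelled normal, differed from Comma-D by more in Ehf than in any other of the 10 factors. Ehf read 7.30, 7.76 and 8.26 on its arrays, all below every Comma-D array, and fell by 2.49 (SE 0.22, 5.63-fold, adjusted p = 2.09e-06). Against MMTV-neu, whose arrays it overlapped, the difference was 0.26 (95% interval -0.20 to 0.73, adjusted p = 0.282). On the scale from 0% at Comma-D to 100% at MMTV-neu Ehf thus lay at 90.5%, with its arrays at 107.7%, 91.0% and 72.8%. The 1561 genes at least 2 log2 units lower in MMTV-neu had a median of 26.6% in this fraction, and Ehf lay above 99.4% of them. In the 1:50 negative, 1:50 positive and 1:1 positive fractions Ehf lay at 12.3%, 12.3% and 97.3%. All these places are from the values as deposited. With centring the median over all genes moved up by 1.75 in MMTV-neu minus Comma-D. In this fraction minus Comma-D it moved up by only 0.34. The place of Ehf between the lines, and its likeness to MMTV-neu, thus depend on the scaling. Without replicate 1 of the fraction, the array nearest to MMTV-neu, Ehf was still 2.26 below Comma-D (-2.26, adjusted p = 4.96e-06).

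The other factors of this fraction lay between the lines or below them. Foxa1 read 9.37, 8.58 and 8.54 and was 1.45 above Comma-D (SE 0.21, adjusted p = 0.000225), at 53.3% of the way. Tbx2 read 8.46, 7.69 and 7.55 and was 1.01 above (SE 0.20, adjusted p = 0.00185), at 42.1%. The 80 genes at least 2 log2 units higher in MMTV-neu had a median of 46.3%, with Foxa1 above 78.75% of them and Tbx2 above 30%. Tfap2b read 8.14, 9.08 and 9.27 and fell by 0.94 (SE 0.23, adjusted p = 0.00668), which became -0.60 (adjusted p = 0.031) without replicate 1 and -0.55 (adjusted p = 0.0605) after quantile normalization. Replicate 1 was the highest array for Foxa1 and Tbx2 and the lowest for Ehf and Tfap2b, in the order of its place over all axis genes.

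**Figure D4:**
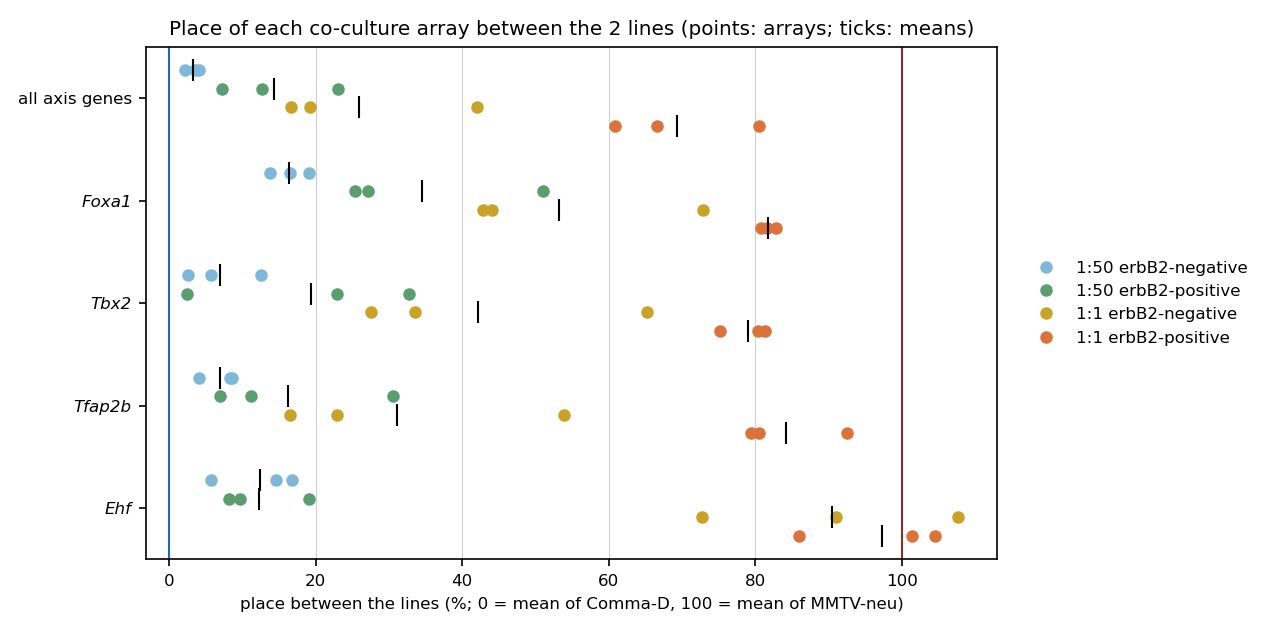
Place of each co-culture array between the lines, in percent, from 0 (Comma-D mean) to 100 (MMTV-neu mean), over 1637 genes (top) and for the 4 factors that differ by at least 2 log2 units between the lines (points: arrays; ticks: means). Foxa1, Tbx2 and Tfap2b keep the order of the fractions seen over all axis genes, whereas the 1:1 erbB2-negative arrays reach 72.8% to 107.7% for Ehf. All places are from the values as deposited and depend on the scaling.

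In all, 7 factors were called in the 1:1 negative fraction against Comma-D, beside 35.7% of all genes, 14.9% higher and 20.9% lower. The 2 higher were Foxa1 and Tbx2, and the 5 lower were Ehf, Tfap2b, Tfap2c, Tbx3 and Gata3. Tfap2c read 6.60, 6.51 and 6.44, below both lines, by 0.40 against Comma-D (-0.40, adjusted p = 0.0223) and by 0.70 against MMTV-neu (-0.70, adjusted p = 0.000123), as 1.23% of all genes were. The first of these was lost without Comma-D replicate 1 (-0.30, adjusted p = 0.106), with centring (-0.06) and after quantile normalization (-0.36, adjusted p = 0.112). Tbx3 fell by 0.60 (SE 0.15, adjusted p = 0.0069), a call lost with centring (-0.26, adjusted p = 0.298) and after quantile normalization (-0.19, adjusted p = 0.392). Gata3 fell by 0.38 (adjusted p = 0.0394), a call lost without any Comma-D array and without replicate 1 or 2 of the fraction (-0.31 to -0.41, adjusted p = 0.0661 to 0.133), and at 0.00 (adjusted p = 0.99) after quantile normalization. As deposited, the median of the level bin of Gata3 and Tbx3 was -0.50. Grhl2 read 7.25, 7.39 and 7.33, the lowest of the 6 groups, with a difference of -0.40 from Comma-D (adjusted p = 0.0559) and -0.47 from MMTV-neu (adjusted p = 0.0121). Elf3 read 6.25, 5.56 and 5.47, a difference of 0.38 from Comma-D (adjusted p = 0.12), which was called without replicate 3 of the fraction (0.53, adjusted p = 0.0411).

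Between the negative fractions 5 factors were called, 3 higher and 2 lower at 1:50, beside 30.3% of all genes, 21.4% higher and 8.87% lower. Ehf was 2.15 higher at 1:50 (SE 0.22, adjusted p = 7.81e-05), Foxa1 fell by 1.01 (SE 0.21, adjusted p = 0.00666) and Tbx2 fell by 0.85 (SE 0.20, adjusted p = 0.00943). Tfap2b was 0.73 higher (adjusted p = 0.0278), but 0.38 (adjusted p = 0.183) without replicate 1 of the 1:1 fraction, and the call was also lost without any 1:50 negative array (0.69 to 0.76, adjusted p = 0.0584 to 0.0812). Tbx3 was 0.49 higher (adjusted p = 0.0239), a call lost without replicate 1 of the 1:50 fraction (0.37, adjusted p = 0.098) and without replicate 1 or 2 of the 1:1 fraction (0.40, adjusted p = 0.13, and 0.46, adjusted p = 0.0534). The median of all genes in the level bin of Tbx3 was 0.50. Grhl2 was 0.39 higher (adjusted p = 0.07), or adjusted p = 0.0159 with the replicate number as a block among the 12 co-culture arrays, and Gata3 was called only without replicate 3 of the 1:1 fraction (0.38, adjusted p = 0.0457). Both scalings ended the calls on Tfap2b and Tbx3, and a fit of these 6 arrays alone made 0 calls, with Ehf at an adjusted p of 0.0552.

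The sort itself was compared within the 1:1 co-culture. Of the 10 factors 8 were called, 5 higher and 3 lower in the positive fraction, beside 56.1% of all genes, 35.2% higher and 21% lower. Tfap2b fell by 1.61 (SE 0.23, 3.05-fold, adjusted p = 9.44e-05), Tbx2 was 0.89 higher (SE 0.20, adjusted p = 0.00205), Foxa1 0.78 higher (SE 0.21, adjusted p = 0.00684) and Grhl2 0.53 higher (SE 0.16, adjusted p = 0.0101). Elf5 read 6.52, 6.54 and 6.55 in the negative and 7.25, 6.87 and 6.84 in the positive fraction, a rise of 0.45 (SE 0.11, adjusted p = 0.00288). The median of all genes in its bin of Comma-D level rose by 0.45 as well. Tfap2c was 0.35 higher (adjusted p = 0.0261), a call lost without replicate 2 or 3 of either fraction (0.29 to 0.34, adjusted p = 0.0673 to 0.0946). Gata3 fell by 0.64 (adjusted p = 0.00155) and Tbx3 by 0.48 (adjusted p = 0.013), but with centring they were at 0.05 (adjusted p = 0.822) and 0.22 (adjusted p = 0.329), and Tbx3 was not called without replicate 3 of the negative fraction (-0.36, adjusted p = 0.08). As deposited, the median of the level bin of Gata3 and Tbx3 was -0.67. Ehf differed by -0.19 (95% interval -0.65 to 0.28, adjusted p = 0.472), and by 0.51 (adjusted p = 0.0297) with centring. Elf3 was 0.42 higher (adjusted p = 0.065), or adjusted p = 0.0211 with the replicate block among the co-culture arrays, and it was called without replicate 1 of the negative (0.67, adjusted p = 0.00207) or replicate 3 of the positive fraction (0.53, adjusted p = 0.043).

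Whether the effect of the ratio differs between positive and negative fractions was tested as an interaction. Tfap2b was the only factor called, beside 2.75% of all genes called and 2.45% called higher, with a 1:50 minus 1:1 difference 1.33 larger in the positive fractions (SE 0.33, adjusted p = 0.0389). In the highest bin of Comma-D level, where Tfap2b lies, the median of this interaction over all genes was 0.38, with an upper quartile of 0.79. The 1:1 fractions of Tfap2b lay far apart and its 1:50 fractions close together. This call was lost without 9 of the 12 co-culture arrays taken in turn (1.11 to 1.38, adjusted p = 0.0633 to 0.134), being kept only without replicate 1 of the 1:1 negative or 1:50 positive fraction or replicate 3 of the 1:1 positive fraction, and was also lost with centring (0.85, adjusted p = 0.0728), when the MMTV-neu arrays were left out of the fit (adjusted p = 0.0558) and when all arrays of the unmixed lines were (adjusted p = 0.122). For Ehf the interaction was 0.19 (95% interval -0.47 to 0.84, adjusted p = 0.693), with ratio differences of 2.34 and 2.15 in the positive and negative fractions. Elf5 had -0.54 (adjusted p = 0.0664), and it was called with the replicate block (adjusted p = 0.0365 over all arrays, 0.0298 among the co-culture arrays), so 2 factors were called then. Elf5 was also called without replicate 1 of the 1:50 positive (-0.59, adjusted p = 0.0381) or replicate 3 of the 1:1 positive fraction (-0.61, adjusted p = 0.0345). Without replicate 1 of the 1:1 negative fraction Elf5 (-0.53, adjusted p = 0.0258), Tbx2 (-0.87, adjusted p = 0.0108) and Elf3 (-0.62, adjusted p = 0.046) were called as well.

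Ranked over the 6 groups, Foxa1, Elf3 and Tbx2 had the same order of means: MMTV-neu, 1:1 positive, 1:1 negative, 1:50 positive, 1:50 negative, Comma-D. Tfap2b had it reversed. Gata3 and Tbx3 ran as Tfap2b did except that the 1:1 positive fraction, not MMTV-neu, was lowest. Of the 50 steps between neighbours in the 10 orders 7 were called. For Foxa1, Tbx2 and Tfap2b the only called step was that between the 1:1 fractions, and for Ehf that between the 1:50 negative and the 1:1 negative fraction. As deposited, the 6 groups of Ehf thus fell into an upper set of 3 and a lower set of 3 within which no neighbours were called. The lower set did not hold with centring. Ehf then turned and was called between the 1:1 positive fraction and MMTV-neu, and also between the 1:1 fractions. No step of Elf3, Grhl2 or Tbx3 was called.

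The other epithelial transcription factors, a list of 30 with 28 measured, were called in both directions between the lines, with 11 higher and 14 lower in MMTV-neu and a median of -0.36, beside 0.40 over all genes, of which 86.8% were called. The direction of the list depended on the scaling: with centring 18 were higher and 2 lower (median 1.39, beside 2.15 over all genes), and after quantile normalization 13 were higher and 10 lower (median 0.19, beside 0.23). Runx1, a factor of both mammary layers, fell by 2.93 (SE 0.17, adjusted p = 2.86e-10), and Sox9, a regulator of luminal progenitors, fell by 2.70 (SE 0.22, adjusted p = 1.42e-08). Both were called lower under either scaling. The ETS factors Elf1, Elf2 and Elf4 fell by 1.94, 1.91 and 1.86 as deposited (adjusted p = 3.71e-07, 2.24e-08 and 4.66e-07), unlike Elf3 and Elf5. With centring they were at -0.19, -0.15 and -0.10 and not called. After quantile normalization they were at -1.61, -1.49 and -1.83 and called lower. Id2 fell by 1.92 as deposited (adjusted p = 7.85e-06 by limma). The largest of the 11 rises was that of Spdef, at 1.85 (adjusted p = 1.36e-07 by limma). Of 19 measured basal and mesenchymal factors 3 were higher and 11 lower, with a median of -0.89. With centring 10 were higher and 4 lower (median 0.86), and after quantile normalization 3 were higher and 10 lower (median -0.44). Prrx1 fell by 3.77 (SE 0.21, adjusted p = 2.21e-10) and Foxc1, a factor of basal-like breast cancers, fell by 2.99 (SE 0.21, adjusted p = 3.61e-09), and both were called lower under either scaling. In the 1:50 positive fraction against Comma-D 0 of the 28 epithelial factors were called by limma, 8 at an unadjusted p under 0.05. No share of all genes at that cut-off was computed, here or for the next list. Of the 19 basal and mesenchymal factors 6 fell there and 0 rose, with 12 at an unadjusted p under 0.05 and a median of -0.48 beside 0.01 over all genes, of which 5.71% were called. With centring 0 of them were called (median -0.24) and after quantile normalization 1, lower (median -0.30). Prrx1 fell by 0.83 (SE 0.21, adjusted p = 0.0272) and Zeb2, which represses Cdh1, fell by 0.81 (SE 0.12, adjusted p = 0.000607), with Zeb2 also called after quantile normalization (-0.61, adjusted p = 0.00513) and neither with centring. Basal and myoepithelial markers ran the other way there, with 2 of 11 higher, 0 lower and a median of 0.32, beside 1.17% of all genes higher. Krt5, a basal keratin, was 1.37 higher (SE 0.26, adjusted p = 0.00414) and Itgb4, a laminin receptor subunit, 0.92 higher (SE 0.17, adjusted p = 0.00356). This was not particular to that fraction. In the 1:50 negative fraction 3 of 11 were higher and 0 lower (median 0.41), beside 1.68% of all genes called. Krt5 was 1.53 and Itgb4 0.71 above Comma-D there. Krt5 was also 1.23 higher in the 1:1 negative fraction (adjusted p = 0.00289).

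In the 1:1 negative fraction against Comma-D 2 of the 28 epithelial factors were higher and 13 lower, with a median of -0.36 beside 0.03 over all genes, of which 35.7% were called. With centring 4 were higher and 3 lower (median -0.02), and after quantile normalization 1 was higher and 5 lower (median -0.17). Foxq1 fell by 1.18 (SE 0.22, adjusted p = 0.00137) and Sox9 fell by 1.13 (SE 0.22, adjusted p = 0.00163), both by less than Ehf, and Foxq1 was not called after quantile normalization (-0.78, adjusted p = 0.0923). Of the 19 basal and mesenchymal factors 2 were higher and 9 lower, beside 14.9% and 20.9% of all genes. With centring 3 were higher and 1 lower, and after quantile normalization 2 and 2. Of 12 measured luminal markers 2 were higher and 6 lower in this fraction, or 4 lower with centring and 5 after quantile normalization. Krt8 rose by 3.35 (SE 0.19, adjusted p = 1.19e-08), while Kit, a receptor of luminal progenitors, fell by 2.57 (SE 0.25, adjusted p = 5.84e-06), Epcam, which varied from 6.52 to 8.41 over the 3 arrays, by 1.87 (SE 0.39, adjusted p = 0.00293) and Cdh1 by 1.43 (SE 0.26, adjusted p = 0.0011). In the 1:50 positive fraction Krt8 was 2.96 above Comma-D (SE 0.19, adjusted p = 5.05e-08) and Krt19 0.54 above (SE 0.14, adjusted p = 0.0373). Krt18, the keratin that pairs with Krt8, fell by 0.60 (SE 0.10, adjusted p = 0.00171), and the calls on Krt18 and Krt19 were lost under either scaling. Epcam (-0.49, adjusted p = 0.483) and Cdh1 (0.03, adjusted p = 0.962) were not called.

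The genes whose pattern over the 6 group means was most like that of a factor were found by the root mean square difference of the centred means, as a description over 18 arrays. For Ehf they were Slc5a8, a monocarboxylate transporter, at 0.15 log2 units, Tc2n at 0.17 and Clmn at 0.23. For Foxa1 they were Itpk1 at 0.066, Mir106b and Ppp2r5c, for Tbx2 Patz1 at 0.066, Zic1 and Cacng4, and for Tfap2b Scpep1 at 0.045, Nxf1 and Bmpr1a, a receptor for bone morphogenetic proteins. The closest genes to Ehf were thus less close than those to the other 3 factors with large differences. Among the 10 factors themselves the closest pairs were Gata3 and Tbx3 at 0.085 and Foxa1 and Tbx2 at 0.15. The patterns of Ehf and Tfap2b, the pair with large falls, differed by 0.61.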

How the data were processed

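The values are log2 intensities as deposited by the authors, made with RMA (robust multi-array average), R 3.1.2 and limma per the submitters' processing notes; for the summarisation software and for filters, the sources used here give no name. The table holds 35556 probe sets for 18 arrays. Of these 23410 were annotated, 21789 with a single gene and 1621 with several, and 12146 were not. Of the single-gene probe sets 21698 matched the RefSeq gene table, which changed 0 symbols, and for each of 19938 genes the probe set with the highest mean was kept. The number of arrays, and not depth, limits the precision.

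One limma fit (limma 3.58.1, R 4.3.3) of the 6 groups with 12 residual degrees of freedom gave two-sided tests, with a gene called where its p, adjusted over the 19938 genes by Benjamini and Hochberg, was under 0.05. The fit was also run on simulated data with independent noise on each array and few changed genes. These data have paired co-culture arrays and many called genes, so that run does not check the p-values given here. The members and the gene lists were chosen with earlier results of these data known. Named were all 10 factors, the check genes, up to 4 called members of a list with the largest differences and no overlap of arrays, and the 3 genes most alike for factors spanning at least 1 log2 unit. The ETS relatives Elf1, Elf2 and Elf4, and Spdef as the largest rise among the other epithelial factors, were named besides. Pairs of groups next to each other in an order were tested in the same fit. Ratios within an array, the block among the co-culture arrays and the gene lists under the other scalings were added after the data were seen. Alternatives were centring on 9 of 12 listed reference genes, quantile normalization, leaving out the lowest 40% of genes, other probe set rules, a trended robust prior, array weights, the replicate block, other sets of arrays in the fit, a minimum difference of 1 log2 unit and leaving out each array in turn.

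The pairing of replicate numbers comes from the data. Deviations from the group means correlated between same-numbered co-culture arrays with a median r of 0.339 over 18 pairs, 17 of them over 0.1, and in each of the 4 comparisons between co-culture fractions all 3 pairs were over 0.1, so the numbers were taken as pairing there. The main fit had no replicate block, so its p-values for these comparisons and the interaction ignore that pairing. With the block among the 12 co-culture arrays, 47 of 50 results kept their side of the threshold and 3 became called. Over all 45 same-numbered pairs 19 were over 0.1, and in the comparisons with the unmixed lines the numbers did not pair the arrays. No array was a copy of another, the smallest largest difference between any pair being 1.83 log2 units.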

Additional observations from a re-analysis of the deposited data

Results flagged for a closer look

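The 1:50 minus 1:1 difference of Tfap2b, an AP-2 factor, was larger in the erbB2-positive than in the erbB2-negative fractions by 1.33 log2 units (95% interval 0.64 to 2.02, adjusted p = 0.0389 by limma), that is, the effect of the mixing ratio differed between the sorted fractions by a test of the difference itself. The difference was 2.06 in the positive and 0.73 in the negative fractions. Over all genes in the highest bin of Comma-D level, which holds Tfap2b, the median interaction was 0.38, with an upper quartile of 0.79. Replicate 1 of the 1:1 negative fraction read 8.14 against 9.08 and 9.27 on its other arrays, and without it the interaction was 1.68 (adjusted p = 0.000668). The call was lost without 9 of the 12 co-culture arrays taken in turn (1.11 to 1.38, adjusted p = 0.0633 to 0.134), with each array centred on reference genes (0.85, adjusted p = 0.0728), when the MMTV-neu arrays were left out of the fit (adjusted p = 0.0558) and in the compared groups only (adjusted p = 0.122).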

How the results depend on the processing

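Over 120 pairs of a factor and a comparison, 86 kept their direction and side of the threshold with centring, 95 after quantile normalization, 119 with a trended robust prior, 118 with the replicate block and 83 with array weights, whose estimation stopped before it converged. Both other probe set rules kept all 120, and leaving out the lowest 40% of genes, which drops Elf3, kept 107 of 108.

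Directions turned with centring for Gata3 (0.88) and Tbx3 (0.91) in MMTV-neu minus Comma-D, Gata3 (-0.90), Grhl2 (-1.42) and Tbx3 (-1.04) in 1:50 positive minus MMTV-neu, Ehf (-0.64) and Grhl2 (-0.65) in 1:1 positive minus MMTV-neu, Gata3 (0.015) and Tfap2c (0.99) in 1:1 positive minus Comma-D, Gata3 (-0.034), Grhl2 (-0.77) and Tbx3 (-0.097) in 1:50 minus 1:1 positive, and Gata3 (0.055), Ehf (0.51) and Tbx3 (0.22) in 1:1 positive minus negative. After quantile normalization they turned for Gata3 (0.17) and Tbx3 (0.030) in the line comparison, Gata3 (-0.22) and Tbx3 (-0.18) in 1:50 positive minus MMTV-neu, and Gata3 (0.0036) in 1:1 negative minus Comma-D. The reference genes fell themselves, 8 of 9 lower in MMTV-neu with a median of -2.02.

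The number of factors called became 9 with centring, 4 after quantile normalization, 4 with weights and 1 with the replicate block (Tfap2c, adjusted p = 0.0491) in 1:1 positive minus MMTV-neu, from 0. In 1:50 positive minus Comma-D it went from 1 to 0 after quantile normalization, 9 with weights and 2 in a fit of the compared groups only. In 1:50 negative minus Comma-D it went from 0 to 3 with weights and 1 in the compared groups only. It was 5 instead of 8 after quantile normalization in both 1:50 minus 1:1 positive and 1:1 positive minus negative, and 3 instead of 7 in 1:1 negative minus Comma-D. In 1:50 minus 1:1 negative it went from 5 to 3 with centring, 3 after quantile normalization, 9 with weights and 0 in the compared groups only, and in 1:50 positive minus negative from 0 to 4 with weights. For the interaction it went from 1 to 0 with centring, without the MMTV-neu arrays or in the compared groups only, to 8 with weights, and to 2 with the replicate block over all arrays or in the 12 co-culture arrays. With a minimum difference of 1 log2 unit it was 5 for the lines, 5 for 1:50 positive minus MMTV-neu, 0 for 1:50 positive minus Comma-D, 4 for 1:50 minus 1:1 positive, 3 for 1:1 negative minus Comma-D, 2 for 1:50 minus 1:1 negative and 1 for 1:1 positive minus negative. The cause of these changes was not tested, except that the last setting only removes calls. The replicate block changed no other call than those of Tfap2c and Elf5 over all arrays, and those of Elf5, Elf3 and Grhl2 among the co-culture arrays.

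Leaving out each array in turn gave 8 to 9 called for the lines, 8 to 9 for 1:50 positive minus MMTV-neu, 0 to 2 for 1:50 positive minus Comma-D, 0 to 1 for 1:1 positive minus MMTV-neu, 8 in every case for 1:1 positive minus Comma-D, 7 to 8 for 1:50 minus 1:1 positive, 0 for 1:50 negative minus Comma-D and 1:50 positive minus negative, 5 to 8 for 1:1 negative minus Comma-D, 3 to 6 for 1:50 minus 1:1 negative, 6 to 9 for 1:1 positive minus negative and 0 to 4 for the interaction. The split of all called genes moved by over 10 percentage points with centring: the higher share went from 30.9% to 6.03% in 1:50 positive minus MMTV-neu, 20.5% to 41.8% in 1:50 positive minus Comma-D, 23.0% to 1.67% in 1:1 positive minus MMTV-neu (36.3% after quantile normalization), 58.5% to 87.0% in 1:1 positive minus Comma-D, 38.4% to 11.5% in 1:50 minus 1:1 positive, 41.6% to 84.5% in 1:1 negative minus Comma-D (57.3%), 70.7% to 22.1% in 1:50 minus 1:1 negative (48.5%), 62.7% to 92.2% in 1:1 positive minus negative and 89.1% to 100% for the interaction (70.9%).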
